A study of Mus musculus with 54 samples.

Results

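Testes of adult F2 male mice whose fathers had been exposed to dose 2 of a pharmaceutical mixture were compared with testes of F2 males whose fathers had been exposed to dose 1. Each group held 3 RNA-seq libraries (A, B and C), so the comparison rests on 6 of the 54 libraries of the series, chosen by their labels alone, and it covers 19241 genes that passed the expression filter. The mixture combined the synthetic oestrogen ethinyl-estradiol (EE2), the anti-inflammatory drugs diclofenac (DCF) and ibuprofen (IBU), and 2hIBU, a hydroxylated form of ibuprofen. At dose 2 the drinking water carried 45 ng/L EE2, 112 ng/L DCF, 113 ng/L IBU and 225 ng/L 2hIBU, and at dose 1 it carried 2.25 ng/L EE2, 22.5 ng/L DCF, 11.3 ng/L IBU and 90 ng/L 2hIBU. The father dose 2 group came from dose 2 males mated with control females, and the father dose 1 group from dose 1 males mated with control females. The fathers' exposure began at 8.5 days post-coitum, through the water of their own dams, and went on until they were killed. The mothers in both crosses belonged to the control group, whose water held 0.001% ethanol, and the F2 males themselves are labelled as untreated. Males were sampled at 10 weeks.

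No control library enters the comparison, so it shows how sons of fathers at the higher dose differ from sons of fathers at the lower dose, and not how either differs from sons of unexposed males. The crosses were read with the male first, as the sample titles give them. The strain, the number of fathers behind each group and the litters of the 3 animals are not given in the labels. A p-value thus reflects variation among the 3 animals within a group, pooled over all groups of its fit, and nothing beyond it. For this comparison those groups are all the F2 testis crosses, not only the crosses compared.

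The adult testis makes sperm in seminiferous tubules, where Sertoli cells nurse germ cells through mitosis, meiosis and the reshaping of round spermatids into sperm. Leydig cells between the tubules make testosterone from cholesterol, and macrophages lie beside them. Most testis RNA comes from germ cells, and many genes with narrow roles elsewhere are transcribed there at low levels. The dose of a father and the family he came from cannot be told apart with these labels.

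Totals were 33.6 to 36.0 M counts in the father dose 2 libraries and 31.8 to 40.4 M in the father dose 1 libraries, and the 10 most abundant genes took 2.96 to 3.33% of counts. Germ cell markers were those of a complete testis, with summed levels of 26200 to 28500 CPM (counts scaled to library size) for 20 elongating spermatid genes in father dose 2 testes and 28200 to 31300 CPM in father dose 1 testes. Of 15 epididymis markers, 9 were too low to test, with at most 6 counts in any of the 6 libraries. The first principal component held 43.6% of the variance and set the groups apart, with scores of -35.5, -29.4 and -18.3 for father dose 2 A, B and C and of 25.2, 30.5 and 27.4 for father dose 1 A, B and C. The next component, with 20.4%, separated father dose 2 A (29.2) from father dose 2 C (-36.3).

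Father dose 2 testes differed from father dose 1 testes in a small set of genes, some of them by several log2 units. By edgeR's quasi-likelihood test 321 of 19241 genes passed an adjusted p of 0.05, or 1.67% of those tested, with 190 higher (0.987%) and 131 lower (0.681%) in father dose 2 testes. The 3 father dose 2 libraries did not overlap the 3 father dose 1 libraries in any of the 321 genes. These genes were picked by the contrast of the same libraries, so that separation adds no evidence. The change was at least 2-fold in 116 of the 321, 73 higher and 43 lower, and 19 stayed under 1 CPM in both groups. The median log2 fold change over all tested genes was -0.00053, and 3105 genes had an unadjusted p under 0.05, against 962 that evenly spread p-values would give. Without 1 library, 76 genes passed without father dose 2 B, 83 without father dose 1 B, 92 without father dose 1 C, 101 without father dose 2 A, 196 without father dose 1 A and 347 without father dose 2 C. DESeq2 called 720 genes, including 320 of the 321.

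**Figure D1:**
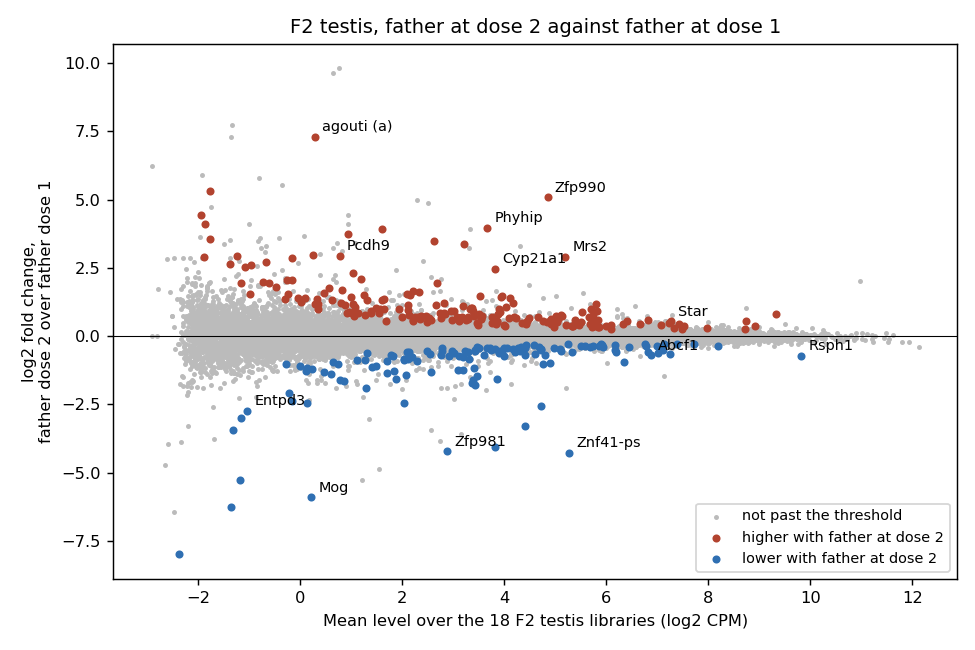
Log2 fold change (father dose 2 over father dose 1) of each tested gene against its mean level in log2 CPM over the 18 F2 testis libraries. Red and blue points are the 190 higher and 131 lower genes that passed the threshold and grey points are the rest. The largest changes, such as those of Zfp990 (5.09) and Mog (-5.89), belong to genes of low or middle abundance, while called genes of high abundance changed little.

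Among the genes higher in father dose 2 testes, Mrs2 had the strongest evidence. It encodes the magnesium channel of the inner mitochondrial membrane. Its levels were 51.8, 39.3 and 31.8 CPM in father dose 2 testes, against 3.78, 4.65 and 8.08 CPM in father dose 1 testes. Every father dose 2 library was thus well above every father dose 1 library, with a log2 fold change of 2.91 ± 0.21 (SE, n = 3 each, adjusted p = 2.73e-06). It passed the threshold in every one of 13 alternative settings. The other 14 tested genes for magnesium transport did not pass, and the median of the list was near 0. The 12 F2 testis libraries of other crosses ranged from 25.1 to 52.2 CPM, so the father dose 1 libraries lay below all of them and the father dose 2 libraries among them.

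The agouti gene (symbol a, Entrez ID 50518), known for a signalling protein that blocks the melanocortin receptor of pigment cells, was nearly without reads in father dose 1 testes. It had 33, 83 and 92 counts in father dose 2 testes, against 1, 0 and 0 counts in father dose 1 testes. The ratio of the pooled levels was 217, with a 95% counting interval of 38.6 to 8620 that covers counting error only (adjusted p = 0.0075, and 0.0545 without father dose 1 B). Elsewhere among the F2 testes it varied within a cross, with 0.0 to 1.11 CPM in sons of mothers at dose 2 and 1.18 to 1.92 CPM in sons of mothers at dose 1.

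Zfp990, a zinc finger gene of a large rodent family, had 56.7, 64.4 and 60.1 CPM in father dose 2 testes, against 1.51, 1.02 and 2.88 CPM in father dose 1 testes. The log2 fold change was 5.09 ± 0.83 (adjusted p = 0.0103, and 0.0659 without father dose 1 B). Phyhip, whose product binds the peroxisomal enzyme phytanoyl-CoA hydroxylase, had 24.5, 19.3 and 12.2 CPM in father dose 2 testes, against 1.41, 1.1 and 1.02 CPM in father dose 1 testes. The groups were far apart in both genes, but the call for Phyhip (3.98 ± 0.77, adjusted p = 0.026) rested on full replication, since adjusted p was 0.0788 to 0.115 without any 1 of father dose 1 A, B or C or father dose 2 A or B. In F2 testes from control parents Phyhip ranged from 0.68 to 16.7 CPM and Zfp990 from 0.973 to 28.7 CPM, so single libraries of another cross reached the low levels too.

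Cyp21a1 encodes steroid 21-hydroxylase, an enzyme of adrenal corticoid synthesis that mouse testis also transcribes. It had 44.0, 25.4 and 7.6 CPM in father dose 2 testes, against 3.56, 3.98 and 6.44 CPM in father dose 1 testes. The father dose 2 libraries spread widely and the lowest was close to the highest father dose 1 library. The log2 fold change was 2.47 ± 0.53 (adjusted p = 0.0368), and 5 of the 6 fits without 1 library lost the call (adjusted p up to 0.137). The protocadherin gene Pcdh9 rose more evenly, with 2.03, 2.52 and 2.9 CPM in father dose 2 testes and 0.247, 0.242 and 0.496 CPM in father dose 1 testes (2.94 ± 0.42, adjusted p = 0.00143).

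The remaining named genes on the higher side were mostly those of receptors and other surface proteins. They included Gpr75, a G protein-coupled receptor (2.85 ± 0.58), Vmn2r1, a vomeronasal receptor (2.71 ± 0.36), and Vsig4, a complement receptor of macrophages (2.06 ± 0.37). The zinc finger gene Zfp987 (1.95 ± 0.27), the clustered protocadherin Pcdha8 (1.93 ± 0.35) and Ceacam10 (1.67 ± 0.40) followed. Tnfrsf8, which encodes the receptor CD30 (1.65 ± 0.29), Pcsk2, a prohormone convertase (1.54 ± 0.28), and Ms4a6d (1.52 ± 0.27) completed the set. Their adjusted p ran from 0.000851 for Vmn2r1 to 0.0382 for Ceacam10. Gpr75 and Ceacam10 lost the call in 5 of the 6 fits without 1 library (adjusted p up to 0.0983 and 0.189), Vsig4 and Pcdha8 in 2, and Pcsk2 and Ms4a6d in 1. Vmn2r1, Zfp987, Pcdha8, Ceacam10 and Ms4a6d belong to families with close relatives, so their counts are uncertain to the extent that reads were split between copies.

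On the lower side Mog stood out. It encodes myelin oligodendrocyte glycoprotein, a surface protein of central nervous myelin. It had 1, 7 and 3 counts in father dose 2 testes, against 180, 260 and 251 counts in father dose 1 testes, which is 0.0294, 0.201 and 0.082 CPM against 4.45, 6.99 and 7.78 CPM. The pooled level was 60.2-fold lower in father dose 2 testes (95% counting interval 33.4 to 121) and the fitted log2 fold change was -5.89 ± 0.50 (adjusted p = 2.92e-06, called in every alternative). The 12 other F2 testis libraries held at most 0.158 CPM, so the father dose 1 libraries were the ones that stood apart. None of the other 10 tested myelin genes passed, and the median of the myelin list was 0.01.

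**Figure D2:**
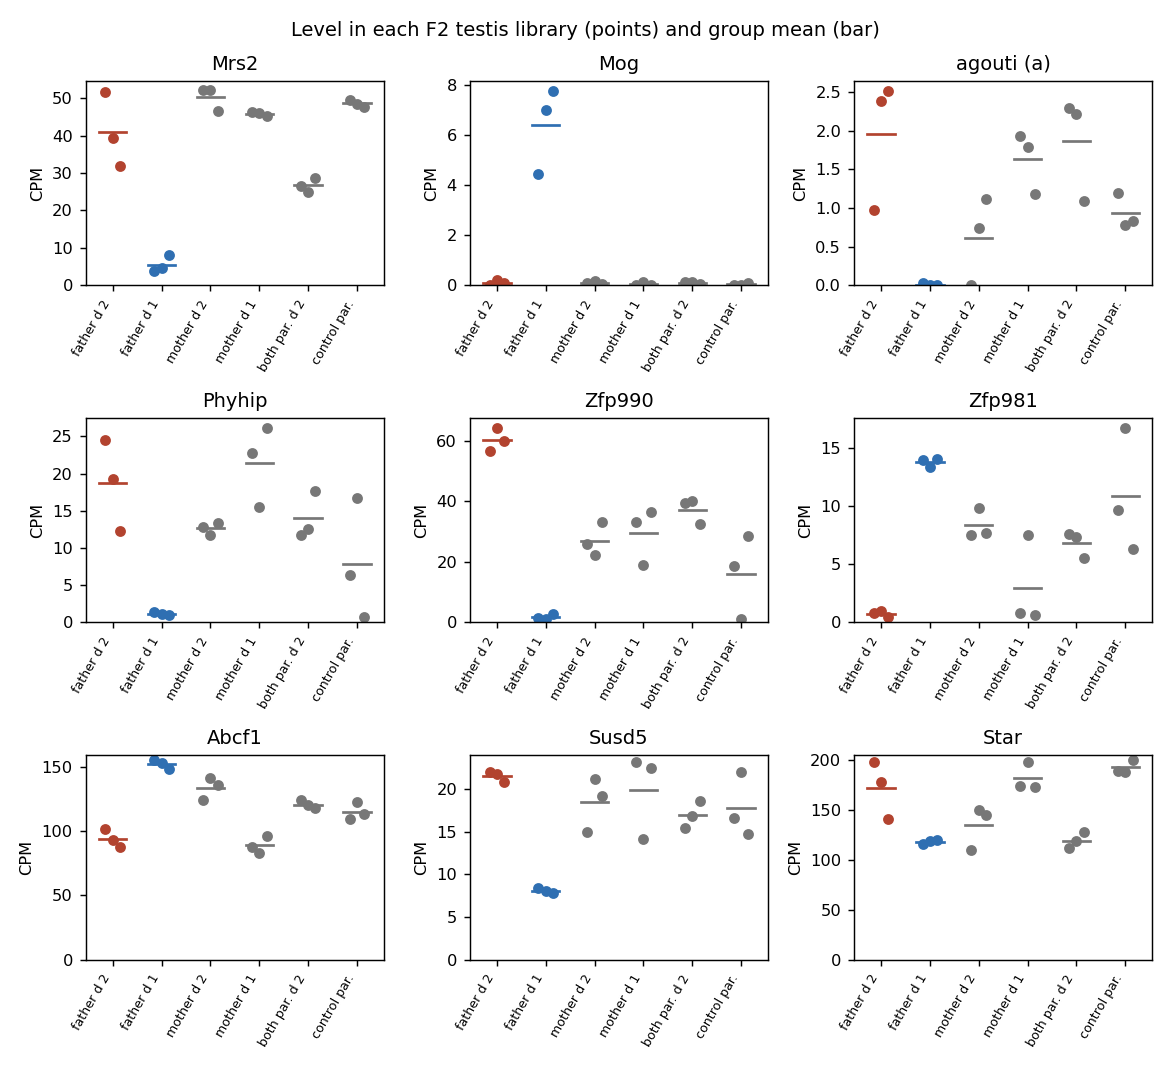
CPM of 9 genes in the 18 F2 testis libraries (points) with the group mean (bar). Father dose 2 is red, father dose 1 blue, and sons of mothers at dose 2, of mothers at dose 1, of both parents at dose 2 and of control parents are grey. Mrs2 and Susd5 are low and Mog is high only among these father dose 1 libraries, while Zfp990, Zfp981 and Phyhip vary widely within some grey groups. Zfp990 is highest in the father dose 2 libraries.

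Several of the other lower genes were zinc finger genes or their relatives. Zfp981 had 0.764, 0.946 and 0.492 CPM in father dose 2 testes, against 14.0, 13.3 and 14.0 CPM in father dose 1 testes (-4.23 ± 0.78, adjusted p = 0.0195). The pseudogene Znf41-ps (-4.27 ± 0.86), Zfp991 (-4.07 ± 0.78) and Zfp992 (-2.55 ± 0.54) were lower too, with adjusted p of 0.0238 to 0.0353. Sons of mothers at dose 1 had 0.604 to 7.52 CPM of Zfp981, so low values were present in another cross as well. Each of these 4 genes lost its call in at least 5 of the 6 fits without 1 library, with adjusted p up to 0.139. They have near-identical relatives, so their counts are uncertain.

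Outside the zinc finger group, Pdpn, which encodes the mucin-type glycoprotein podoplanin, had 1.09, 0.946 and 1.69 CPM in father dose 2 testes, against 3.24, 5.16 and 5.54 CPM in father dose 1 testes (-1.89 ± 0.24, adjusted p = 0.000509). Mid1, an X-linked gene for a ubiquitin ligase bound to microtubules, had 7.88, 7.91 and 7.27 CPM in father dose 2 testes, against 21.7, 24.3 and 22.1 CPM in father dose 1 testes (-1.56 ± 0.24, adjusted p = 0.00439). Mid1 was tight within both groups, and both genes were called in every alternative.

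Entpd3, an enzyme that breaks down extracellular nucleotides, fell by 2.74 ± 0.41 on the log2 scale, and the collagen-degrading protease gene Ctsk fell by 2.45 ± 0.56. The interferon-activated gene Ifi204 (-2.37 ± 0.44), Faim2, an inhibitor of Fas-driven cell death (-2.10 ± 0.40), and the adaptor gene Grb7 (-1.62 ± 0.35) were lower as well. Ccdc42os, an opposite-strand transcript of Ccdc42 (-1.66 ± 0.25), cannot be told from its partner without a strand setting. Speer4d (-1.56 ± 0.22) and Speer4c (-1.45 ± 0.23) belong to a rodent family of glutamate-rich proteins expressed in testis, with many close copies, and Ifi204 has close relatives too, so these counts are uncertain. Adjusted p in these 8 genes ran from 0.00119 for Speer4d to 0.0353 for Ctsk. Ctsk lost the call in all 6 fits without 1 library (adjusted p 0.0527 to 0.16) and with the replicate block (0.0508). Grb7 lost it in 4 of the 6 fits (up to 0.138), Faim2 in 2 and Ifi204 in 1.

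The promoters of the genes that passed were searched for AGGTCA, a motif bound by oestrogen receptors and by other nuclear receptors, because 1 compound of the mixture is an oestrogen. RefSeq promoters of build GRCm38.p6 were available for 245 called genes, and the 250 bases before the start held the motif on either strand in 40 of them (16.3%). The share was 19.2% of 146 higher genes, 12.1% of 99 lower genes and 12.5% of 15045 tested genes with a promoter. The longer element GGTCANNNTGACC, which overlaps the shorter motif, was in 0 called promoters and in 3 of all tested ones. The shares are descriptions, and a match is not a binding site. Shown here are 3 promoters that hold the motif, of an X-linked gene, a Sertoli cell gene and a gene from a run of neighbours. Most called promoters held no match, so these 3 are not typical of them. Each is on its own strand with AGGTCA or its reverse complement TGACCT in capitals.
Mid1, chrX:169684949-169685198, plus strand: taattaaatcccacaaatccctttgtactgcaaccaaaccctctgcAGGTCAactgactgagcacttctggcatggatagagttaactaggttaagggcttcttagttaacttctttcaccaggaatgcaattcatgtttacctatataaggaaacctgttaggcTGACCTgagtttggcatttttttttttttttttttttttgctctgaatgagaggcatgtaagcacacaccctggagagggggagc
Inha, chr1:75507359-75507608, plus strand: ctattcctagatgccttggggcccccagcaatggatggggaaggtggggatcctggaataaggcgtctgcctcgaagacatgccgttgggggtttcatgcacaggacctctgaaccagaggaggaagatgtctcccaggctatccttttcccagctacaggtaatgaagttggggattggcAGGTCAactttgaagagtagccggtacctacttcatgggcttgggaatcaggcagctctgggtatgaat
Zfp57, chr17:37003416-37003665, plus strand: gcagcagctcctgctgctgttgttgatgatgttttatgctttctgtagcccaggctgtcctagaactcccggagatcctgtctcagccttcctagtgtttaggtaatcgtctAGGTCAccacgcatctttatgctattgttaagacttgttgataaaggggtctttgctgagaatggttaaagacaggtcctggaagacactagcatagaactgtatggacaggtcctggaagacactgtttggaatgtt

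Some of the genes that changed lay side by side. All 321 called genes had a place in the RefSeq gene order, and 40 of them (12.5%) had a directly neighbouring tested gene that was called too, against 3.07% of the 18847 uncalled genes. There were 22 such neighbouring pairs, of which 16 moved the same way and 6 opposite ways, and 3 had overlapping gene spans. Over the 13 alternatives the share for called genes was 6.59 to 18%, with 6.59% without father dose 1 C and 7.89% without father dose 2 B, and each time above that for uncalled genes. Counting as a run any 3 or more called genes with at most 5 tested genes between neighbours, 12 runs held 56 called genes (17.4%). In 8 runs the called genes included both directions, not always as direct neighbours, and in 4 all moved one way. These are descriptions of where called genes lie, and no test was made of them.

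**Figure D3:**
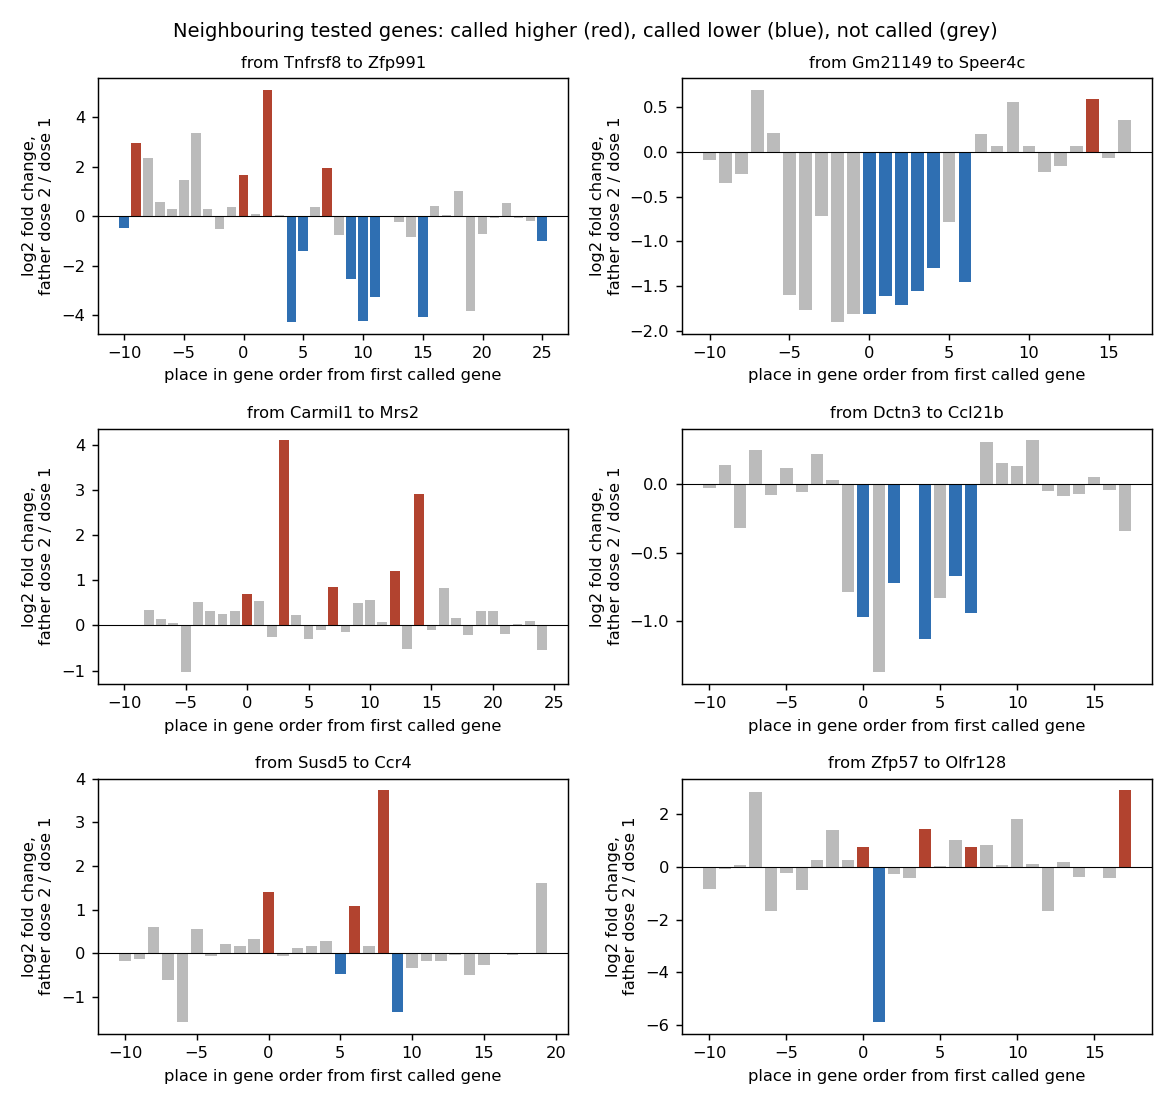
Log2 fold change (father dose 2 over father dose 1) of tested genes in 6 of the 12 runs with 10 tested genes on each side, by place in the gene order. Red and blue bars are called genes, higher and lower, and grey bars are genes that did not pass. The run from Tnfrsf8 to Zfp991 mixes genes up to 5.09 higher and 4.27 lower, while all called genes from Gm21149 to Speer4c are lower and from Carmil1 to Mrs2 higher.

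The longest run, 9 called genes over 16 tested ones, held Tnfrsf8, Zfp990 and Zfp987 on the higher side and Znf41-ps, Gm13238, Zfp992, Zfp981, 1700095A21Rik and Zfp991 on the lower side. Zinc finger genes of this kind encode repressors of transposable elements and sit in clusters of recent copies. 1700095A21Rik had 2.82, 3.5 and 4.37 CPM in father dose 2 testes, against 33.2, 33.6 and 37.5 CPM in father dose 1 testes, but lost the call in all 6 fits without 1 library (adjusted p up to 0.168). Thus members of 1 cluster differed about as strongly in one direction as others did in the opposite one. The next run on the same chromosome held Fv1, a restriction factor against retroviruses (-1.02 ± 0.23), Mfn2, a mitofusin that fuses mitochondria (-0.35 ± 0.063), Agtrap (-0.28 ± 0.068), the axon guidance gene Draxin (-1.27 ± 0.29) and the F-box genes Fbxo44 (-0.39 ± 0.077) and Fbxo6 (0.56 ± 0.13). All 6 lost the call in at least 3 of the 6 fits without 1 library, with adjusted p up to 0.194.

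The run that ends with Mrs2 was higher throughout. Carmil1, a regulator of actin capping, changed by 0.69 ± 0.13, Acot13, a mitochondrial thioesterase, by 0.85 ± 0.19 and 9330162012Rik by 1.21 ± 0.26. The predicted gene Gm11346 had 22 counts in the 3 father dose 2 libraries together and 1 count in the father dose 1 libraries. Acot13 and Gm11346 lost the call in 5 of the 6 fits without 1 library, 9330162012Rik in 3 and Carmil1 in 2, with adjusted p up to 0.145. Carmil1 ran from 44.0 to 79.1 CPM in the 12 other F2 libraries, so all father dose 1 libraries and 2 of 3 father dose 2 libraries were below that range, with 49.6, 34.2 and 32.9 CPM in father dose 2 testes and 20.4, 25.3 and 26.9 CPM in father dose 1 testes.

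A run of Gm21149, Gm21190, Gm21083, 4930572O03Rik and the 2 Speer4 genes was lower in all 6 members, with log2 fold changes of -1.81 to -1.30. Its genes are near copies of one another, so the 6 calls may share reads. Gm21149 and Gm21083 lost the call in all 6 fits without 1 library (adjusted p up to 0.17) and 4930572O03Rik in 2. The run from Dctn3 to Ccl21b was lower in all 5 called members, among them the dynactin subunit gene Dctn3 (-0.97 ± 0.21), the galactose enzyme gene Galt (-1.13 ± 0.21) and the chemokine genes Ccl27a (-0.67 ± 0.12) and Ccl21b (-0.94 ± 0.22). The chemokine genes have close copies nearby, so their counts are uncertain. These 4 named genes lost the call without single libraries, with adjusted p up to 0.213.

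The run from Susd5 to Ccr4 held 3 higher and 2 lower called genes. Susd5 had 22.0, 21.8 and 20.8 CPM in father dose 2 testes, against 8.45, 8.02 and 7.78 CPM in father dose 1 testes (1.41 ± 0.18, adjusted p = 0.000509). The libraries of a group lay close together, and the 12 other F2 libraries (14.1 to 23.2 CPM) covered the father dose 2 levels only. The lysosomal galactosidase gene Glb1 (1.07 ± 0.17) and the predicted gene Gm30254 (3.74 ± 0.57) were higher, while Crtap, part of the complex that modifies collagen prolines (-0.48 ± 0.11), and the chemokine receptor gene Ccr4 (-1.35 ± 0.23) were lower. Crtap lost the call in 5 of the 6 fits without 1 library (adjusted p up to 0.155).

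The run around Mog held Zfp57, which guards methylation at imprinted loci, and the olfactory receptor genes Olfr112 and Olfr128. Zfp57 had 35.6, 36.4 and 36.9 CPM in father dose 2 testes, against 27.9, 18.2 and 18.7 CPM in father dose 1 testes (0.75 ± 0.13, adjusted p = 0.00562). Thus Mog was lower while the next called gene on either side, Zfp57 and Olfr112 (1.45), was higher. Olfr112 lost the call in 2 of the 6 fits without 1 library and Olfr128 in 5 (adjusted p up to 0.239). None of the 29 tested imprinted genes passed, and at 1.67% called over all genes less than 1 call would fall in a list of that size. A short run nearby in the same chromosome's order held Abcf1, a gene for a ribosome-associated ATPase. Abcf1 had 102, 93.1 and 87.5 CPM in father dose 2 testes, against 155, 153 and 148 CPM in father dose 1 testes (-0.69 ± 0.073, adjusted p = 7.5e-05). Beside it the GTP-binding protein gene Gnl1 was lower (-0.51 ± 0.087) and the predicted gene Gm8801 higher (3.38 ± 0.65, call lost in 3 of the 6 fits without 1 library).

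Of the remaining 4 runs, one held Olfr16, Gm35742 and the actin-assembly gene Fmn2 (0.71 ± 0.15) on the higher side with Ifi204 lower. Another held Pdpn and Pramel12 (-0.49 ± 0.09) lower with Oog4 higher. The run of Pin1rt1 (-1.10 ± 0.21), Ccdc73 (0.52 ± 0.11) and Gm38521 (0.96 ± 0.18) mixed directions. The last run held the calcium-binding protein gene S100a11 (-0.73 ± 0.13) between Tdpoz8 and Tdpoz4, members of a family of near copies. These had 1 and 2 counts in all father dose 2 libraries together, against 106 and 94 counts in the father dose 1 libraries. In these 4 runs Pdpn and S100a11 kept the call in each fit without 1 library, and the other members lost it in at least 1 such fit, Ccdc73 and Tdpoz4 in all 6.

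The levels were also set beside the 12 testis libraries of the other F2 crosses. Among the 321 called genes the father dose 2 libraries lay wholly outside the range of the 12 other F2 testis libraries in 46 (14.3%), and the father dose 1 libraries in 109 (34.0%). Over all tested genes these shares were 1.93% and 2.13%. In 170 called genes (53.0%) neither group lay outside that range, and in 4 both did. The 321 genes were picked by the contrast of these same father libraries, so their larger shares add no evidence. These levels describe the spread among F2 testes. None of the 12 libraries enters the contrast of father dose 2 with father dose 1, but they inform its spread and filter.

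Genes of each cell type and pathway were then counted by list. The lists and members were chosen with earlier results of these data known, so shares of calls within them are descriptions. At the share of 1.67% called over all tested genes, less than 1 call would fall in a list of 30 genes or fewer, so a list without a call gives no result about its genes. Among somatic cell lists, 2 of 20 tested Sertoli cell genes fell in father dose 2 testes and none rose, against 0.681% of all tested genes called lower. The median log2 fold change of the list was -0.26 and 17 of 20 estimates were negative, while the median over all tested genes was near 0. Inha, which encodes the alpha subunit of the hormone inhibin, had 54.6, 56.5 and 63.9 CPM in father dose 2 testes, against 83.9, 86.5 and 82.2 CPM in father dose 1 testes (-0.53 ± 0.12, adjusted p = 0.0265). Ctsl, a lysosomal protease gene, had 199, 187 and 189 CPM in father dose 2 testes, against 229, 242 and 237 CPM in father dose 1 testes (-0.30 ± 0.062, adjusted p = 0.0174). Both groups were tight in these genes, and both calls were lost in most fits without 1 library, with adjusted p up to 0.14 for Inha and 0.116 for Ctsl.

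The anti-Mullerian hormone receptor gene Amhr2 had 123 ± 4.15 CPM in father dose 2 testes and 160 ± 4.22 CPM in father dose 1 testes (SD, n = 3 each) and missed the threshold (adjusted p = 0.0569). The summed Sertoli cell level was 1360 to 1390 CPM in father dose 2 testes and 1580 to 1680 CPM in father dose 1 testes. In bulk tissue, fewer cells of a type and less RNA per cell cannot be told apart.

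Leydig cell genes had a median of 0.02 over 19 tested genes, with 1 call. It was Star, which carries cholesterol into mitochondria and limits the rate of steroid synthesis. Star had 198, 178 and 141 CPM in father dose 2 testes, against 116, 119 and 120 CPM in father dose 1 testes (0.54 ± 0.11, adjusted p = 0.0199). The father dose 2 libraries were all higher but differed among themselves, and adjusted p was 0.0699 to 0.119 without any 1 of father dose 1 A, B or C or father dose 2 A or B. The steroid enzyme genes Cyp17a1 (-0.12 ± 0.096) and Hsd17b3 (0.20 ± 0.17) did not pass. None of the 22 tested genes of cholesterol synthesis and uptake passed either.

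Of 20 tested macrophage genes 2 were called, both higher in father dose 2 testes, against 0.987% of all tested genes called higher. The median was 0.22 and 17 estimates were positive. The lysozyme gene Lyz2 had 14.1, 16.9 and 16.8 CPM in father dose 2 testes, against 9.61, 8.98 and 8.92 CPM in father dose 1 testes (0.79 ± 0.14, adjusted p = 0.00569), and was called in every alternative. Cd163, a scavenger receptor of resident macrophages, had 1.26, 1.26 and 1.45 CPM in father dose 2 testes, against 0.445, 0.511 and 0.558 CPM in father dose 1 testes (1.39 ± 0.32, adjusted p = 0.0329), and lost the call without any 1 library. The summed macrophage level, however, overlapped, at 350 to 409 CPM in father dose 2 testes and 362 to 396 CPM in father dose 1 testes.

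Genes for MHC class II, which presents antigens to T cells, held 1 call in 7 tested genes, on the lower side. The median was -0.51, with 4 negative and 3 positive estimates. H2-DMa, a chaperone of peptide loading, had 11.1, 11.1 and 10.7 CPM in father dose 2 testes, against 16.1, 14.7 and 16.1 CPM in father dose 1 testes (-0.51 ± 0.098, adjusted p = 0.0103, and 0.0589 without father dose 1 C and 0.0547 without father dose 2 B). H2-Ab1 had 9.22 ± 2.46 CPM in father dose 2 testes and 22.7 ± 5.45 CPM in father dose 1 testes, without passing (adjusted p = 0.0653). H2-Eb1 (-0.77), H2-DMb1 (-0.79), H2-Aa (0.42), Cd74 (0.03) and Ciita (1.82) did not pass, and the summed MHC class II level was 34.7 to 37.6 CPM in father dose 2 testes and 46.2 to 61.6 CPM in father dose 1 testes. None of 8 tested lymphocyte genes, 14 endothelial genes, 13 peritubular genes, 9 adipocyte genes or 6 epididymal genes passed. The summed epididymal level was 71.7 to 89.5 CPM in father dose 2 testes and 58.8 to 69.7 CPM in father dose 1 testes, most of it from Cftr, which had 68.6 ± 8.55 CPM in father dose 2 testes and 50.6 ± 4.70 CPM in father dose 1 testes. The median of the epididymal list was 0.73, with 5 positive and 1 negative estimates, and Crisp1 stood at 1.83 (adjusted p = 0.605). Lcn5, Lcn10 and Adam7, defining genes of the epididymis, were too low to test, with 0 to 4 counts per library.

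**Figure D4:**
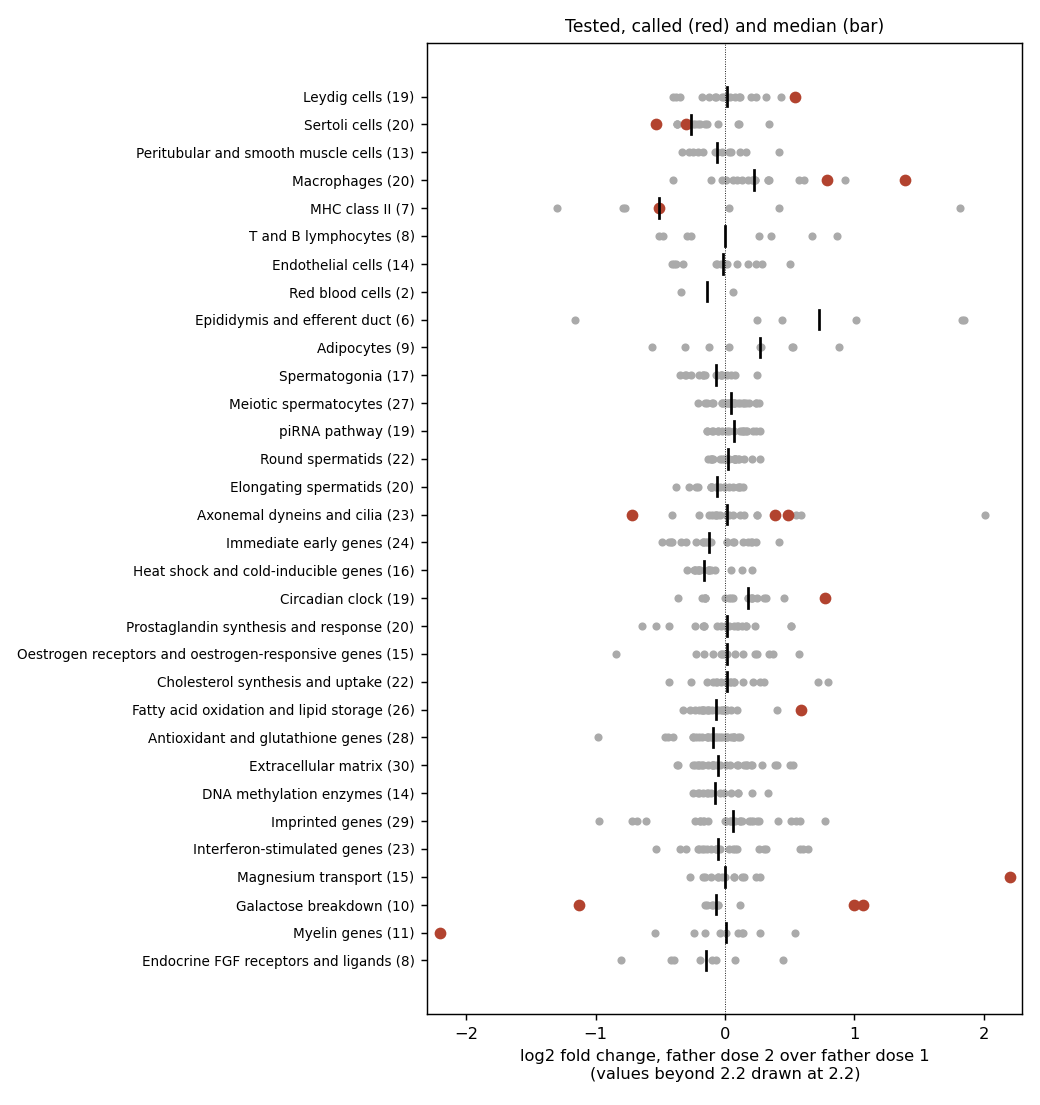
Log2 fold change (father dose 2 over father dose 1) of the tested members of 32 gene lists, with the number tested in brackets. Red points passed the threshold, grey points did not, and black bars are list medians. The Sertoli median lies at -0.26 and the macrophage median at 0.22, while the germ cell lists centre near 0 with no called member.

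Germ cell lists held no called gene. None passed among 17 spermatogonial, 27 meiotic, 19 piRNA pathway, 22 round spermatid and 20 elongating spermatid genes tested, and the list medians lay between -0.07 and 0.07. The protamine gene Prm2, which packs sperm DNA, had 3630 ± 508 CPM in father dose 2 testes and 4730 ± 357 CPM in father dose 1 testes (-0.38 ± 0.14, adjusted p = 0.176). With 1.67% of all genes called, few calls would fall among so many genes, so their lack is no result about germ cells.

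Flagellar genes contained 3 calls in 23 tested genes, 2 higher and 1 lower, against 1.67% called over all genes. Rsph1, a radial spoke protein of the axoneme, had 728, 730 and 851 CPM in father dose 2 testes, against 1350, 1220 and 1230 CPM in father dose 1 testes (-0.72 ± 0.16, adjusted p = 0.0302). The inner-arm dynein genes Dnah7a (0.49 ± 0.11, adjusted p = 0.0307) and Dnah7b (0.39 ± 0.095, adjusted p = 0.0443) were higher in father dose 2 testes, and as near copies of each other are uncertain. All 3 calls were fragile, since Rsph1 lost its own in 5 of the 6 fits without 1 library (adjusted p up to 0.138), Dnah7a in 4 (up to 0.136) and Dnah7b in all 6 (up to 0.175). Dnah8, an outer-arm dynein of sperm, had 3010, 2360 and 1750 CPM in father dose 2 testes, against 526, 630 and 610 CPM in father dose 1 testes. The groups did not overlap, yet with its large SE it did not pass (2.01 ± 0.60, adjusted p = 0.122). The other 19 tested members did not pass, and the list median was 0.02.

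Among metabolic genes, galactose breakdown had 3 calls in 10 tested genes, against 1.67% called over all genes. This list too was chosen with earlier results of these data known, so its share is no evidence about the pathway. Galm, which converts galactose between its ring forms, had 60.8, 53.1 and 49.5 CPM in father dose 2 testes, against 27.7, 25.3 and 28.6 CPM in father dose 1 testes (1.00 ± 0.16, adjusted p = 0.00562). Glb1 was higher and Galt lower, as given with their runs, so the 3 did not move one way, and the kinase and epimerase genes of the pathway did not pass. The fatty acid carrier gene Cd36 had 28, 32.9 and 33.7 CPM in father dose 2 testes, against 22.9, 19.3 and 20.7 CPM in father dose 1 testes (0.59 ± 0.15, adjusted p = 0.0496). It sat just under the threshold, lost the call without any 1 library, and was the only one of 26 tested lipid genes to pass. Of 19 clock genes only the repressor gene Bhlhe41 passed (0.77 ± 0.16, adjusted p = 0.0218), with 5.53, 5.88 and 5.55 CPM in father dose 2 testes and 3.38, 3.39 and 3.19 CPM in father dose 1 testes. It lost the call in 5 of the 6 fits without 1 library (adjusted p up to 0.111).

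No gene passed among those of the pathways on which the mixture's compounds act directly. With 1.67% of all tested genes called, less than 1 call would fall in a list of this size, so the lack of calls is no result about these pathways. None of 15 tested oestrogen receptor and response genes passed. Cyp19a1, the aromatase that makes oestrogen, had 9.19 ± 0.348 CPM in father dose 2 testes and 7.25 ± 0.628 CPM in father dose 1 testes (adjusted p = 0.241), and the receptor gene Esr1 had a log2 fold change of 0.25 ± 0.16 (adjusted p = 0.457). None of 20 tested prostaglandin genes passed. No call fell among 14 DNA methylation, 28 antioxidant, 30 extracellular matrix, 24 immediate early, 16 heat shock, 23 interferon-stimulated and 8 endocrine FGF genes tested.

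The same dose contrast among sons of exposed mothers gave fewer calls. Between mother dose 2 and mother dose 1 testes 46 genes passed (0.239%), 24 higher (0.125%) and 22 lower (0.114%), and 10 genes passed in both contrasts, which is 3.12% of the 321 and 21.7% of the 46, with 5 of the 10 in the same direction. The difference between the paternal and the maternal dose contrast was itself tested, and 124 genes passed (0.644%), 73 with a positive difference (0.379%) and 51 with a negative one (0.265%). Of these, 74 were among the 321, but both contrasts use the same father libraries, so this overlap is no separate evidence. Mrs2 changed by 2.91 ± 0.21 between fathers and 0.13 ± 0.18 between mothers (difference 2.77 ± 0.28, adjusted p = 0.000141).

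Some genes had estimates of opposite sign by parent. Abcf1 was lower by father (-0.69 ± 0.073) and higher by mother (0.59 ± 0.073, adjusted p = 0.00173), a difference of -1.28 ± 0.10 (adjusted p = 3.83e-06). Lims2, which encodes an adaptor of cell adhesions, had 17.9, 19.5 and 17.6 CPM in father dose 2 testes, against 42.2, 35.7 and 35.1 CPM in father dose 1 testes, and its difference was -1.69 ± 0.17 (adjusted p = 3.28e-05). Ccr4 (-2.48 ± 0.32), the centrin-binding gene Sfi1 (-1.33 ± 0.18) and Apol7e (-3.22 ± 0.49) had negative differences as well, although Apol7e did not pass between father dose groups alone (adjusted p = 0.0543). Positive ones included Vmn2r1 (3.97 ± 0.49), the serine protease gene Prss45 (1.52 ± 0.19), Catspere1, a subunit of the sperm calcium channel (1.11 ± 0.14), and Lyz2 (1.26 ± 0.19). Star, too, differed by parent (0.97 ± 0.16, adjusted p = 0.00669), with 0.54 ± 0.11 by father and -0.43 ± 0.11 by mother. The change by mother alone did not pass for Star (adjusted p = 0.123), Sfi1 (0.257), Vmn2r1 (0.114) or Lyz2 (0.158). It passed for Abcf1, Lims2, Ccr4, Apol7e, Prss45 and Catspere1. Ceacam10 (2.23 ± 0.36 by mother) and Ccdc42os (-1.57 ± 0.24 by mother) changed the same way with either parent.

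**Figure D5:**
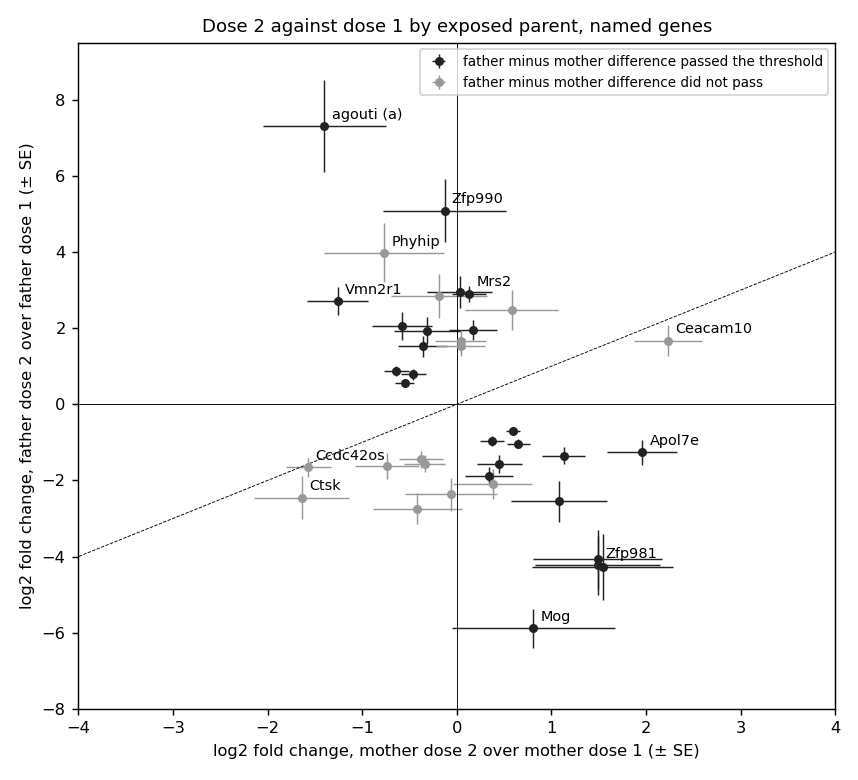
Log2 fold change of dose 2 over dose 1 (± SE) for named genes in sons of exposed fathers (vertical axis) and of exposed mothers (horizontal axis). Black points have a father minus mother difference that passed the threshold, grey points do not, and the dashed line marks equal change. Most named genes lie near 0 for mothers, while Ceacam10 and Ccdc42os lie close to the dashed line.

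In directly exposed F1 males the contrast between dose 2 and dose 1 differed from that between sons of exposed fathers in 1112 of 19467 genes (5.71%). The difference was positive in 613 (3.15%) and negative in 499 (2.56%). Among the 1112 were 187 of the 321 genes, but both contrasts use the same F2 libraries, so this overlap is no separate evidence. Between F1 dose 2 and F1 dose 1 testes alone 935 genes passed (4.8%), 399 higher (2.05%) and 536 lower (2.75%). Rsph1 was lower in F2 (-0.72 ± 0.16) and higher in F1 at dose 2 (0.77 ± 0.15), a difference of -1.49 ± 0.21 (adjusted p = 0.00143). Abcf1 (difference -1.15 ± 0.12), Slc37a1, a sugar phosphate antiporter gene (-2.34 ± 0.32), Chd1l, a chromatin remodeller (-1.38 ± 0.21), and Drc1, of the axonemal regulatory complex (-0.64 ± 0.093), showed the same pattern, although Slc37a1 did not pass in F2 alone (adjusted p = 0.0738). Riiad1 (1.72 ± 0.25), Ranbp17 (0.82 ± 0.13), Lrrd1 (0.82 ± 0.14), Asb15 (0.76 ± 0.13) and Pcdh9 (3.65 ± 0.56) differed the other way. F1 and F2 males also differ in the generation and in being exposed themselves, which cannot be told apart here.

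Ovaries of daughters from the same crosses gave few calls, and none of them was a testis call. In ovary 14 of 17454 genes passed (0.0802%), 11 higher (0.063%) and 3 lower (0.0172%), with 3716 at an unadjusted p under 0.05, and 0 of the 14 were among the 321 testis genes, of which 248 were tested in ovary. Of these 248, 122 (49.2%) had the same sign in ovary, against 42.5% of all 16084 genes tested in both tissues. At an unadjusted p under 0.05 in ovary, 25 of the 248 had the same sign as in testis and 33 the opposite one. With 1.67% of genes called in testis, less than 1 of 14 genes would be shared, so the 0 is no result about sharing. Mrs2 had 30.2, 18.4 and 16.7 CPM in father dose 2 ovaries, against 24.8, 37.4 and 31.4 CPM in father dose 1 ovaries (-0.52 ± 0.23, adjusted p = 0.206). Mid1, lower in testis, had 41.7, 50.9 and 66.1 CPM in father dose 2 ovaries, against 180, 164 and 120 CPM in father dose 1 ovaries, and missed the threshold (-1.55 ± 0.35, adjusted p = 0.0732). Oog4 (0.76 ± 0.16, adjusted p = 0.0697) and Agtrap (-0.68 ± 0.16, adjusted p = 0.0725) had the sign they had in testis and missed it too. The ovaries were taken at 8 weeks and the testes at 10 weeks, so age differs along with sex and tissue. The ovary count is fragile, with 1252 genes by DESeq2, 0 in a fit of the 6 libraries alone, and 0 to 482 without 1 library.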

How the data were processed

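For each tissue the authors deposited raw whole-number counts per gene, which in testis fill 26264 entries. Per the labels' protocols, TRIZOL extracts were made into libraries with a stranded mRNA ligation kit. Per the submitters' processing notes, build mm39 was used with featureCounts 2.0.3, TopHat2 2.1.1 and Bowtie2 2.4.5 among other tools. Strand handling is not given in the sources used here, nor is the annotation. Antisense, overlapping and near-identical genes are therefore uncertain. In testis 133 entries had a symbol without a gene ID (0.332 to 0.341% of counts in the 6 libraries) and were kept, but have no place in the gene order.

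The counts of the 18 F2 testis libraries were fitted in R 4.3.3 with edgeR 4.0.16 (quasi-likelihood test, robust, TMM factors, filterByExpr at minimum count 10, threshold 0.05 after Benjamini-Hochberg adjustment over all tested genes). Only the 6 father dose 2 and father dose 1 libraries enter the contrast, and the others inform the spread and the filter. The fit for the F1 comparison used all 27 testis libraries, and ovaries were fitted apart. SE is the log2 fold change divided by the square root of F. The steps were tested on simulated counts. Alternatives were DESeq2 1.42.0, no low-count filter, RLE size factors, the letter as a replicate block, other sets of libraries and each library left out. No 2 replicate libraries agreed within sampling noise.

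Deviations of same-letter libraries from their group means correlated at 0.0103, -0.0564 and 0.0242 between the groups compared. No pairing by letter was seen, although these values cannot exclude a weak one, and the main fit treats the samples as unpaired. Named genes are the 15 largest changes each way among those with an adjusted p under 0.05, at least 1 CPM in 1 group, no predicted name and groups that did not overlap. Added to these are up to 4 called members per list, all called members of runs (1 is not reported here), and up to 5 genes each way for the differences by parent and generation, chosen on the test of the difference (Apol7e and Slc37a1 did not pass between father dose groups). The members and lists were chosen with earlier results of these data known. Dnah8, Amhr2, H2-Ab1, Prm2, Cftr and other list members that did not pass are named beyond this rule, after their values were seen. Gene order came from RefSeq's GRCm38.p6 table, which matched 26083 of 26131 IDs, and is not that of mm39. Promoter sequences are RefSeq's for the same build.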

Additional observations from a re-analysis of the deposited data

Results flagged for a closer look

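The genes below were named for the largest changes between father dose groups, or by rank in a test of difference, and passed that test. The test compared the dose 2 minus dose 1 difference of sons of exposed fathers with the one in another group of males. The lists thus lean toward large changes between father dose groups, and other named genes that passed are left out. Against sons of exposed mothers these include Susd5 (1.52), Draxin (-2.48), Star (0.97), Galm (1.42) and Gm30254 (4.37). Values are differences between log2 fold changes, and none is explained here.

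Against sons of exposed mothers, 124 genes passed. The agouti gene (8.71), Zfp990 (5.22), Vmn2r1 (3.97), Pcdh9 (2.91), Mrs2 (2.77), Vsig4 (2.64), Pcdha8 (2.24), Ms4a6d (1.88), Zfp987 (1.79), Prss45 (1.52), Lyz2 (1.26) and Catspere1 (1.11) were higher by father. Mog (-6.71), Znf41-ps (-5.81), Zfp981 (-5.72), Zfp991 (-5.55), Zfp992 (-3.63), Apol7e (-3.22), Ccr4 (-2.48), Pdpn (-2.23), Mid1 (-2.02), Lims2 (-1.69), Sfi1 (-1.33) and Abcf1 (-1.28) were lower by father. The SE of the difference was 0.74 to 1.42 for agouti, Zfp990, Mog, Znf41-ps, Zfp981, Zfp991 and Zfp992.

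Against directly exposed F1 males, 1112 genes passed. Higher in F2 were the agouti gene (7.17), Zfp990 (5.47), Phyhip (4.49), Gpr75 (4.05), Pcdh9 (3.65), Ceacam10 (3.62), Vmn2r1 (3.22), Mrs2 (3.19), Cyp21a1 (3.16), Zfp987 (2.31), Pcdha8 (2.23), Tnfrsf8 (2.23), Vsig4 (1.97), Ms4a6d (1.87), Riiad1 (1.72), Ranbp17 (0.82), Lrrd1 (0.82) and Asb15 (0.76). Lower in F2 were Zfp981 (-4.80), Ifi204 (-3.90), Ctsk (-3.28), Entpd3 (-2.59), Slc37a1 (-2.34), Pdpn (-2.32), Mid1 (-1.54), Rsph1 (-1.49), Chd1l (-1.38), Speer4c (-1.24), Speer4d (-1.22), Abcf1 (-1.15) and Drc1 (-0.64). The SE of the difference was 1.83 for agouti, 1.31 for Zfp981, 1.12 for Phyhip, 1.06 for Gpr75 and 0.97 for Zfp990.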

How the results depend on the processing

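Between father dose 2 and father dose 1 testes 321 genes passed, 720 did by DESeq2 and 878 in a fit of the 6 libraries alone. The count was 301 to 394 without a low-count filter, with RLE size factors, with 15 or 27 libraries in the fit and with the replicate block (342), and 76 to 347 without 1 library. No named gene changed direction. Of 95 called named genes 25 passed under each of 13 alternatives, among them Abcf1, Entpd3, Glb1, Gm13238, Gm21190, Gm30254, Gnl1, Lims2, Lrrd1, Lyz2, Mid1, Mog, Mrs2, Pcdh9, Pdpn, S100a11, Sfi1, Speer4c, Speer4d, Susd5, Tnfrsf8, Vmn2r1, Zfp57 and Zfp987. Another 66 lost the call in at least 1 of the fits without 1 library. The difference between the paternal and maternal contrasts (124) became 339 by DESeq2, 200 in a fit of its 12 libraries and 51 to 178 without 1 library. The difference from F1 males (1112) became 1726 by DESeq2 and 293 to 1235 without 1 library. The maternal contrast (46) became 269 by DESeq2 and 9 to 98 without 1 library. The ovary contrast (14) became 1252 by DESeq2, 0 in a fit of its 6 libraries, 9 with the replicate block and 0 to 482 without 1 library. The replicate block gave 148, 1070 and 65 genes for the parental, generational and maternal comparisons. The letters are not known to pair the animals. The cause of these shifts was not tested.

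With 3 libraries a group, genes under 1 CPM rest on few counts, and their log2 fold changes are imprecise. Each p is set against the spread within the groups of its fit only, and no control library is part of the contrast.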

Other observations

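In ovaries of daughters of dose 2 fathers, against daughters of dose 1 fathers, 14 genes passed. None was a testis call, which with so few calls is no result about sharing. Among the 11 higher ones were oocyte genes, including Gdf9, a growth factor that oocytes secrete to steer follicle growth (0.83 ± 0.135), Npm2, a chromatin protein stored in eggs (0.74 ± 0.119), and Khdc3, part of a maternal protein complex of the egg (0.73 ± 0.118). Gdf9 had 127, 138 and 136 CPM in father dose 2 ovaries, against 63.9, 79.3 and 82.5 CPM in father dose 1 ovaries. Bsn (-1.18 ± 0.187), Slc22a15 (-1.19 ± 0.209) and D16Ertd472e (-1.63 ± 0.24) were the 3 lower genes. Adjusted p was 0.0482 to 0.0497 for all 14, so the whole set lies just inside the threshold, and none of them passed in a fit of the 6 ovary libraries alone. In testis Gdf9 had a log2 fold change of 0.56 (adjusted p = 0.446) and Bsn of 0.27 (adjusted p = 0.318). These ovary genes were named after their values were seen.

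In ovary Star had 226, 537 and 314 CPM in father dose 2 libraries, against 2130, 4070 and 987 CPM in father dose 1 libraries (-2.74 ± 0.82, adjusted p = 0.105), the opposite sign to testis and not past the threshold. The sex, tissue and age of these animals differ, and the 2 tables were never joined in one fit.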
